A study of Mus musculus with 2 samples.

Results

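Naive-type CD4 T cells were picked out of the pancreatic immune infiltrate of NOD mice by the transcripts each cell held: 52 of 1109 barcodes at 7 weeks of age and 202 of 2804 at 12 weeks, 254 of 3913 in all. A barcode stands for 1 captured droplet, and transcripts were counted as unique molecular identifiers (UMIs), tags that mark each captured mRNA molecule. Barcodes under 200 genes or over 10% mitochondrial UMIs were left out. It was taken as a naive-type CD4 T cell when it held at least 2 UMIs of the CD3 genes Cd3d, Cd3e and Cd3g together, at least 1 of Cd4, none of Cd8a or Cd8b1, at most 1 of the B cell gene Cd79a and none of Foxp3, the regulatory T cell factor. It also had to hold at least 2 UMIs of Lef1, Igfbp4 and Dapl1 together, under 3 of the interferon-induced GTPase genes Iigp1, Igtp and Gbp4, and under 4 over 7 cell division genes. All of these genes chose the cells, so their levels are given below as description only.

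A naive CD4 T cell has left the thymus and has not yet met its antigen in a form that activates it. Such cells circulate between blood and lymph nodes: homing receptors such as the chemokine receptor CCR7 bring them into the node, and the sphingosine phosphate receptor S1PR1 lets them out. The transcription factors TCF1 and LEF1 maintain their identity, interleukin-7 keeps them alive, and growth-restraining factors keep them at rest. On activation they lose the homing receptors and gain CD44, inflammatory chemokine receptors and, with continued stimulation, inhibitory receptors such as PD-1 and LAG-3. In NOD mice, which develop autoimmune diabetes spontaneously, CD4 T cells are a large part of the islet infiltrate and are needed for disease.

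The data came from 2 libraries of CD45.1+ cells, 1 from NOD/ShiLtJ females 7 weeks old and 1 from NOD/ShiLtJ females 12 weeks old, with no treatment named at either age. CD45.1 is the form of the leukocyte surface protein CD45 that this strain carries, and cells with it were isolated from the pancreas by flow cytometry before capture with the 10x Genomics Chromium 3' kit. How many mice were pooled for each library is not stated in the labels. With 1 library an age there was no test, and a difference between the ages cannot be told apart from a difference between the libraries. Intervals beside ratios and shares are exact 95% binomial intervals and cover counting error only, not variation between mice.

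The naive-type CD4 T cells held a median of 5512 UMIs at 7 weeks (2734 to 14306) and 4537 at 12 weeks (3044 to 23105), with 303704 and 1053701 UMIs in sum. Mitochondrial genes took a median of 1.93% and 2.06% of a cell's UMIs. The 2 libraries shared 2 barcode sequences, none of them among these cells. No doublet caller was run here, and 4 of the cells held 20 or more UMIs of genes that mark other cell types. The 7-week cell had 14306 UMIs, 140 of them of B cell and 101 of plasmacytoid dendritic cell genes. Of the 3 cells at 12 weeks, 1 held 596 UMIs of endothelial and stromal genes, 1 held 69 of endocrine and 1 held 62 of acinar genes. The ranking of genes between the ages is given without them, over 51 and 199 cells. Other results, among them those for gene lists and for variation among cells, keep them in unless stated.

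Lef1, which encodes the factor LEF1 (mm10, chromosome 3, 131110471 to 131224356), was the broadest of the 3 selecting genes: 46 of 52 cells held a UMI of it at 7 weeks and 191 of 202 at 12 weeks. Its level, as the share of all UMIs summed over the cells, in counts per 1000000 (CPM), was 563 at 7 weeks and 639 at 12 weeks. Igfbp4, which encodes a secreted binding protein of insulin-like growth factors (chromosome 11, 99041244 to 99054392), was found in 30 of 52 and 129 of 202 cells at 639 and 530 CPM, with up to 30 and 54 UMIs in a single cell. Dapl1 (chromosome 2, 59484653 to 59505020) was found in 17 of 52 and 94 of 202 cells at 191 and 350 CPM. The 3 genes did not mark the same cells: 11 of 52 (21.2%) and 66 of 202 (32.7%) held all 3, while 17 and 47 held Lef1 alone. Cd4 (chromosome 6, 124864692 to 124888221) was counted at a median of 1 UMI a cell at 7 weeks and 2 at 12 weeks. In B cells (at least 2 UMIs of Cd79a and none of CD3), which should lack them, Lef1 was seen in 6.09% and 2.24% of cells and Igfbp4 in 1.74% and 1.22%, so a single UMI of either was rare there.

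The set was graded rather than uniform. The sum of the 3 selecting genes had a median of 5.5 UMIs at 7 weeks and 7 at 12 weeks and reached 37 and 54. At 7 weeks 15 cells had exactly 2 UMIs, 14 had 3 to 6 and 23 (44.2%) had 7 or more, and at 12 weeks the numbers were 37, 58 and 107 (53.0%). Median depth was alike in the 3 bands, at 5530, 5860 and 5473 UMIs at 7 weeks and at 4389, 4307 and 4743 at 12 weeks. Genes of the effector and memory list (among them Cd44, S100a4, Cxcr3, Ccl5 and the galectin gene Lgals1) summed to 5162, 6549 and 2700 CPM over the 3 bands at 7 weeks and to 9061, 3970 and 2560 CPM at 12 weeks. The per-cell medians went down from band to band at both ages, from 4582 through 3104 to 2226 CPM at 7 weeks and from 6109 through 2414 to 2084 CPM at 12 weeks. The sums of the naive and lymphoid homing list, which leaves out the selecting genes, went the other way, at 3582, 4299 and 4325 CPM at 7 weeks and 4136, 4821 and 4990 CPM at 12 weeks. Its per-cell medians were 3174, 5054 and 4389 CPM at 7 weeks and 4871, 4990 and 5266 CPM at 12 weeks. By medians the highest band at 7 weeks thus lay below the middle one.

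**Figure D1:**
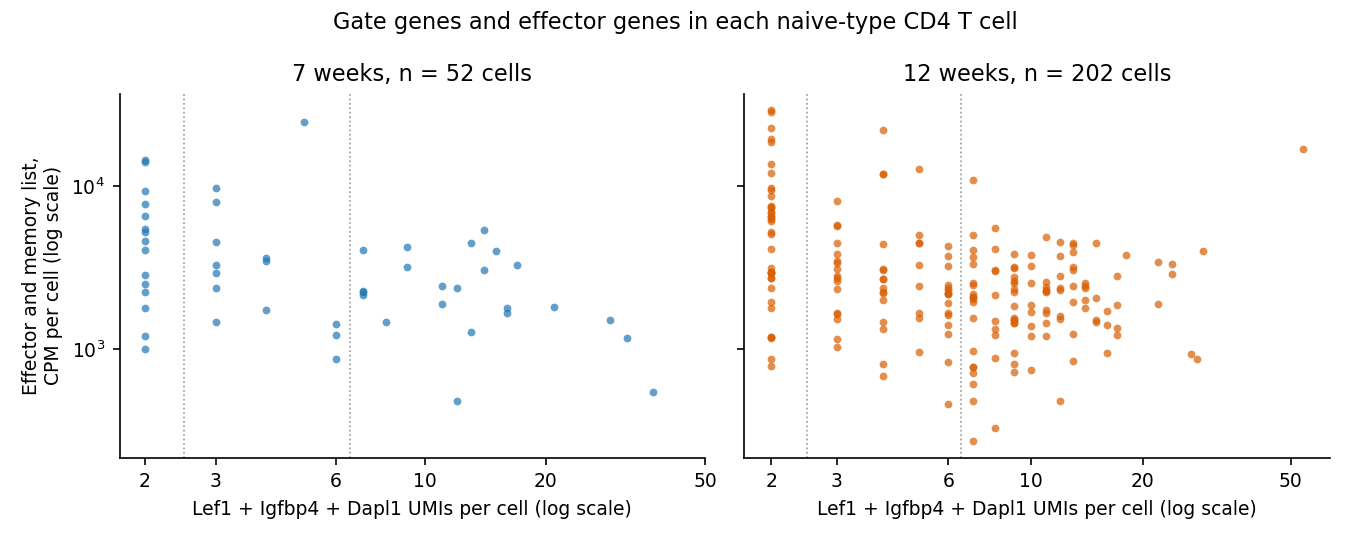
Each point is 1 naive-type CD4 T cell; the horizontal axis gives its UMIs of Lef1, Igfbp4 and Dapl1 (log scale) and the vertical axis its summed level of effector and memory genes in CPM (log scale), for 7 weeks (52 cells) and 12 weeks (202 cells). Dotted lines part the cells with 2, 3 to 6 and 7 or more UMIs; the highest point lies among the cells with 3 to 6 UMIs at 7 weeks and among those with 2 UMIs at 12 weeks, and the lone point with 54 UMIs at 12 weeks is the cell with stromal transcripts.

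Just inside it, cells with 2 UMIs of the selecting genes carried the effector and memory list at 5162 CPM (n = 15) and 9061 CPM (n = 37). Just outside, cells with 1 UMI carried it at 9101 CPM (n = 46) and 8150 CPM (n = 94). By these sums the cells just inside were, at 12 weeks, nearer to those just outside than to the cells with 7 or more UMIs. At 7 weeks they were by the sums nearer to the latter. The 7-week per-cell medians were 5529 CPM just outside, 4582 CPM just inside and 2226 CPM with 7 or more UMIs. By these medians the cells just inside were nearer to those just outside.

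Some genes of naive cells followed the bands. For shares of cells, each cell was thinned at random to 2000 UMIs, which every member exceeded, so that depth was equal. Satb1, the gene of a nuclear organiser (chromosome 17, 51736187 to 51833290), was then seen in 3 of 37 cells with 2 UMIs at 12 weeks (8.11%, 1.70 to 21.9) and in 45 of 107 with 7 or more (42.1%, 32.6 to 52.0), against 14 of 259 CD4 T cells with no UMI of the selecting genes (5.41%). At 7 weeks the shares were 1 of 15 (6.67%), 10 of 23 (43.5%) and 7 of 136 (5.15%). Ccr7 (chromosome 11, 99144196 to 99155077) went from 18.9% (7.96 to 35.2) to 47.7% (37.9 to 57.5) between the lowest and highest bands at 12 weeks. Before thinning the 12-week shares in the lowest and highest bands were 21.6% and 69.2% for Satb1 and 35.1% and 71.0% for Ccr7. B cells are no background for these genes, which they express too: after thinning 123 of 492 showed Satb1 and 24.2% Ccr7 at 12 weeks. S1pr1 did not follow the bands, at 27.0%, 31.0% and 24.3%. Nor did Tcf7, the gene of TCF1, which was seen in 32.4%, 34.5% and 41.1% of cells, in 32.0% of CD4 T cells with no selecting UMI and in 0.203% of B cells.

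Some genes of activated and memory helper cells ran the opposite way. Ccl5, of the effector and memory list, did not at 7 weeks. It was seen there in 5 of 15, 1 of 14 and 7 of 23 cells from the lowest to the highest band. Cxcr3, a receptor for chemokines induced by interferon-gamma, was seen at 12 weeks in 15 of 37 cells with 2 UMIs (40.5%, 24.8 to 57.9), in 4 of 58 with 3 to 6 (6.90%) and in 2 of 107 with 7 or more (1.87%, 0.227 to 6.59). The last share was no higher than that of B cells (2.85%), whose median depth was 4607 UMIs. Maf, a factor of follicular and interleukin-10 producing helper cells, was seen in 35.1%, 10.3% and 0.935% of the 12-week bands (B cells 0.610%). Pdcd1, the PD-1 gene, was seen in 27.0%, 19.0% and 0.935% (B cells 0.610%). Tbc1d4, a regulator of glucose transporter traffic, was seen in 40.5%, 12.1% and 2.80% (B cells 1.42%). Izumo1r, which encodes the folate receptor FR4, was seen in 45.9%, 32.8% and 11.2% (B cells 1.42%) and so kept a share above the B cells in the highest band. Before thinning, the lowest and highest 12-week bands held 48.6% and 2.80% for Cxcr3 and 59.5% and 20.6% for Izumo1r. At 7 weeks the lowest and highest bands gave 3 of 15 and 0 of 23 for Cxcr3, where 0 of 23 allows a share of up to 14.8%, 7 of 15 and 2 of 23 for Tbc1d4 and 8 of 15 and 4 of 23 for Izumo1r.

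**Figure D2:**
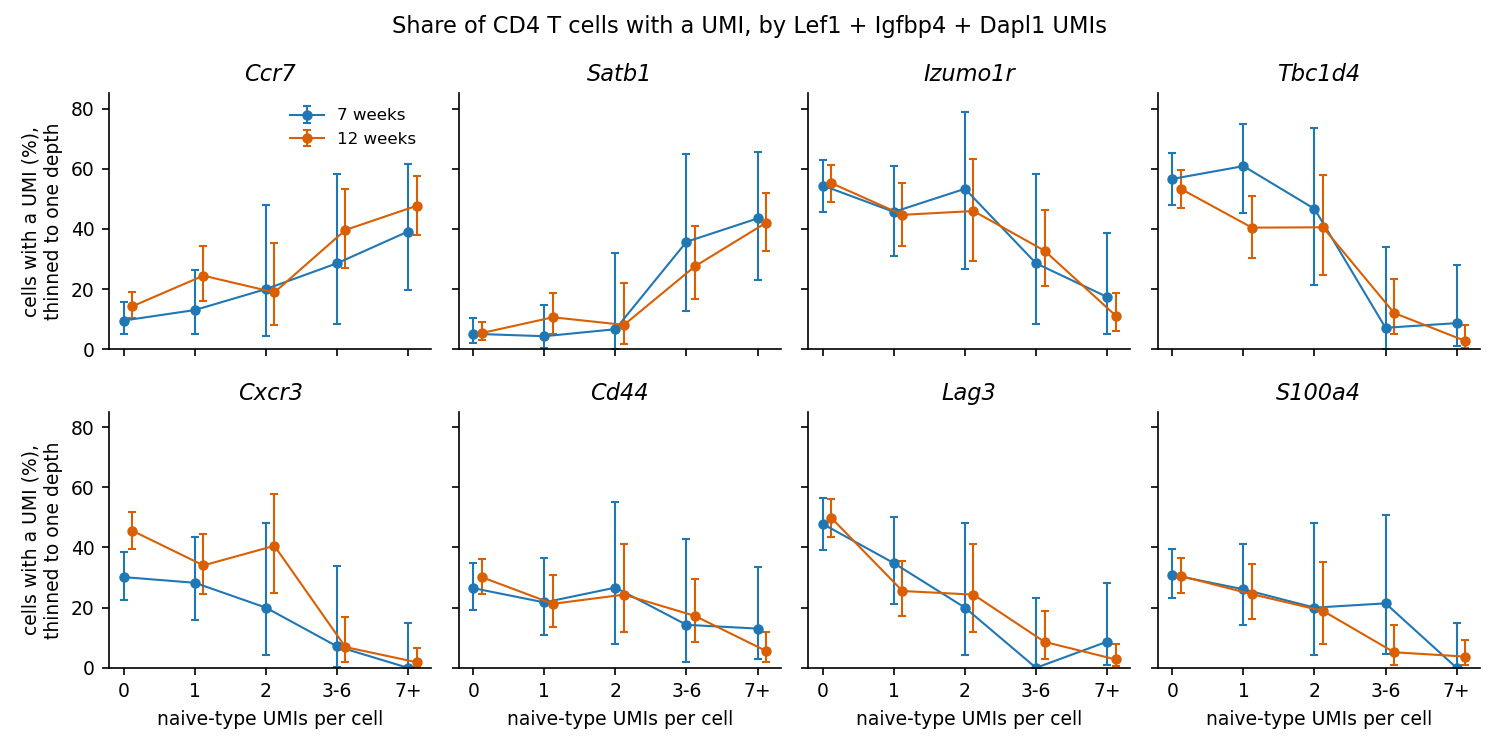
Each panel gives, for 1 gene, the share of CD4 T cells that met the other parts of the rule with a UMI after thinning to 2000 UMIs (vertical axis, percent) in cells with 0, 1, 2, 3 to 6 and 7 or more UMIs of Lef1, Igfbp4 and Dapl1 (horizontal axis), at 7 weeks (blue) and 12 weeks (orange). Bars are exact 95% binomial intervals; Satb1 and Ccr7 were seen in more cells of the highest band than of the cells with 2 UMIs, and Cxcr3, Tbc1d4 and Lag3 in fewer.

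Single cells could carry genes of both kinds. Without thinning, 38 of 52 cells (73.1%, 59.0 to 84.4) and 162 of 202 (80.2%, 74.0 to 85.5) held a UMI of Ccr7 or S1pr1. A UMI of Izumo1r or Tbc1d4 was held by 26 of 52 and 87 of 202 (43.1%), and 18 (34.6%) and 65 (32.2%) had both 1 of the homing pair and 1 of this pair. None of Ccr7, S1pr1 and Klf2 was seen in 9 of 52 (17.3%) and 29 of 202 (14.4%). By these genes the label naive-type held best for the cells with 7 or more UMIs. Cells with 2 UMIs were seen with Izumo1r, Tbc1d4 and Cxcr3 at shares whose intervals overlapped those of the CD4 T cells with no selecting UMI. At 7 weeks, with 15 such cells, the intervals of all 3 genes also overlapped those of the cells with 7 or more UMIs. The overlap at that age therefore does not place the cells with 2 UMIs on either side.

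The regulatory T cell list summed to 194 CPM at 7 weeks and 192 CPM at 12 weeks, against 461 and 548 CPM in CD4 T cells without the selecting genes, with Foxp3 itself at 0 by the rule. The B cell list summed to 807 and 392 CPM, against 33893 and 39615 CPM in B cells, and 57.1% of the 7-week sum came from 1 cell. In CD4 T cells without the selecting genes it summed to 2925 and 1015 CPM. The endothelial and stromal list summed to 72.4 and 626 CPM, against 38.5 and 127 CPM in all other kept barcodes, and 90.3% of the 12-week sum came from 1 cell. RNA of pancreatic tissue moved with age: the acinar list summed to 23.1 CPM in the younger library and 313 CPM in the older, and the endocrine list to 46.1 and 200 CPM. In all other kept barcodes the acinar and endocrine ratios of 12 over 7 weeks were 18.9 and 4.29, against 13.6 and 4.34 here. In the naive-type CD8 T cells compared below, the endocrine list summed to 48.9 CPM at 7 weeks and 18009 CPM at 12 weeks. Cells with other markers were not left out of the comparison sets. The part of RNA from other cells in the differences between ages and between cell sets below was not tested.

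The closest comparison within the helper lineage was with CD4 T cells without the naive-type genes, the 136 and 259 cells that met every other part of the rule but had no UMI of Lef1, Igfbp4 or Dapl1. A gene was counted where it was at least 1.5-fold higher, or lower, in both libraries. No minimum count was set within a library. Dcn, with 0 UMIs in both sets at 7 weeks, and Sparc, with 1 against 0, were therefore counted as higher. Of 2380 genes with a mean of at least 50 CPM, 43 (1.81%) were higher and 194 (8.15%) lower in the naive-type cells. Of 15 naive and lymphoid homing genes tested, 7 were higher and none lower, with a median log2 ratio of 0.77 against -0.15 over all genes tested. Of 18 effector and memory genes, 12 were lower and none higher, with a median of -1.12.

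Homing receptors and resting-state factors were among the higher genes. Satb1 stood at 191 against 27.8 CPM at 7 weeks and 171 against 27.6 CPM at 12 weeks, ratios of 6.87 and 6.2, and Ccr7 was 3.24-fold and 3.05-fold higher. Klf2, a factor that turns on homing genes such as S1pr1, stood at 102 against 37.8 CPM and at 75.0 against 29.1 CPM, ratios of 2.70 and 2.58. S1pr1 itself was 2.34-fold and 1.81-fold higher. Txk, a kinase of the Tec family, stood at 366 against 61.2 CPM at 7 weeks and at 231 against 87.9 CPM at 12 weeks.

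Of 17 quiescence and growth restraint genes tested 4 were higher, Klf2 among them, and 1 lower, Gimap3. These counts stand beside 1.81% higher and 8.15% lower of all genes. Pik3ip1, an inhibitor of PI3 kinase, stood at 113 against 12.7 CPM at 12 weeks, a ratio of 8.92, and at 4.28-fold at 7 weeks. Tsc22d3, the glucocorticoid-induced leucine zipper gene, was 4.76-fold (3.18 to 7.22) and 3.11-fold (2.58 to 3.75) higher, and Txnip, a thioredoxin-binding brake on glucose uptake, was 2.68-fold and 1.89-fold higher. Outside that list, Dgka, a diacylglycerol kinase that damps receptor signals, was 1.58-fold and 1.85-fold higher, and the survival gene Bcl2 1.97-fold and 1.79-fold. Il7r, the interleukin-7 receptor gene, was 3.02-fold (2 to 4.55) higher at 7 weeks and 1.48-fold (1.24 to 1.78) at 12 weeks, just short of the limit. Tcf7 stood at ratios of 0.68 and 1.10 and separated the sets at neither age by 1.5-fold in the higher direction. Sparc, Dcn and Slpi also reached the ranking, but the UMIs of Sparc and Dcn at 12 weeks and of Slpi at 7 weeks came mostly from 1 cell with other markers.

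Nrn1, which encodes neuritin, was the lowest of the named genes: 3 UMIs in naive-type cells against 134 in the others at 7 weeks, a ratio of 0.066 (0.014 to 0.198, and 0.10 without the highest of the other cells), and 6 against 142 at 12 weeks, a ratio of 0.054. Serpina3g came next in that ranking, at ratios of 0.17 and 0.16. Some chemokine genes and receptors were lower too. Ccl5, a chemokine of memory and cytotoxic cells, stood at 247 against 567 CPM at 7 weeks and at 190 against 2562 CPM at 12 weeks, ratios of 0.44 and 0.074, which became 0.16 and 0.045 without the naive-type cell highest in it. Cxcr3 stood at ratios of 0.23 and 0.22, and Cxcr6 at 0.31 and 0.27 (0.17 at 12 weeks without its highest cell). Of 15 costimulatory and inhibitory receptor genes tested, 9 were lower and none higher, beside 8.15% lower and 1.81% higher of all genes. Lag3, which binds MHC class II and restrains T cells, stood at 138 against 399 CPM and at 160 against 702 CPM, and Tnfrsf4, the OX40 gene, at ratios of 0.33 and 0.21. Pdcd1 stood at 0.32 and 0.33 (0.17 at 7 weeks without its highest cell) and Izumo1r at 0.51 and 0.38. Among helper lineage genes 5 of 8 were lower, including the cytokine gene Ifng at 0.38 (0.075 without its highest cell) and 0.12 and Tnfsf8, the CD30 ligand gene, at 0.45 and 0.12. Of 19 T cell receptor signalling genes 7 were lower and none higher, with a median of -0.37. The helper lineage and T cell receptor signalling counts stand beside the same shares of all genes.

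**Figure D3:**
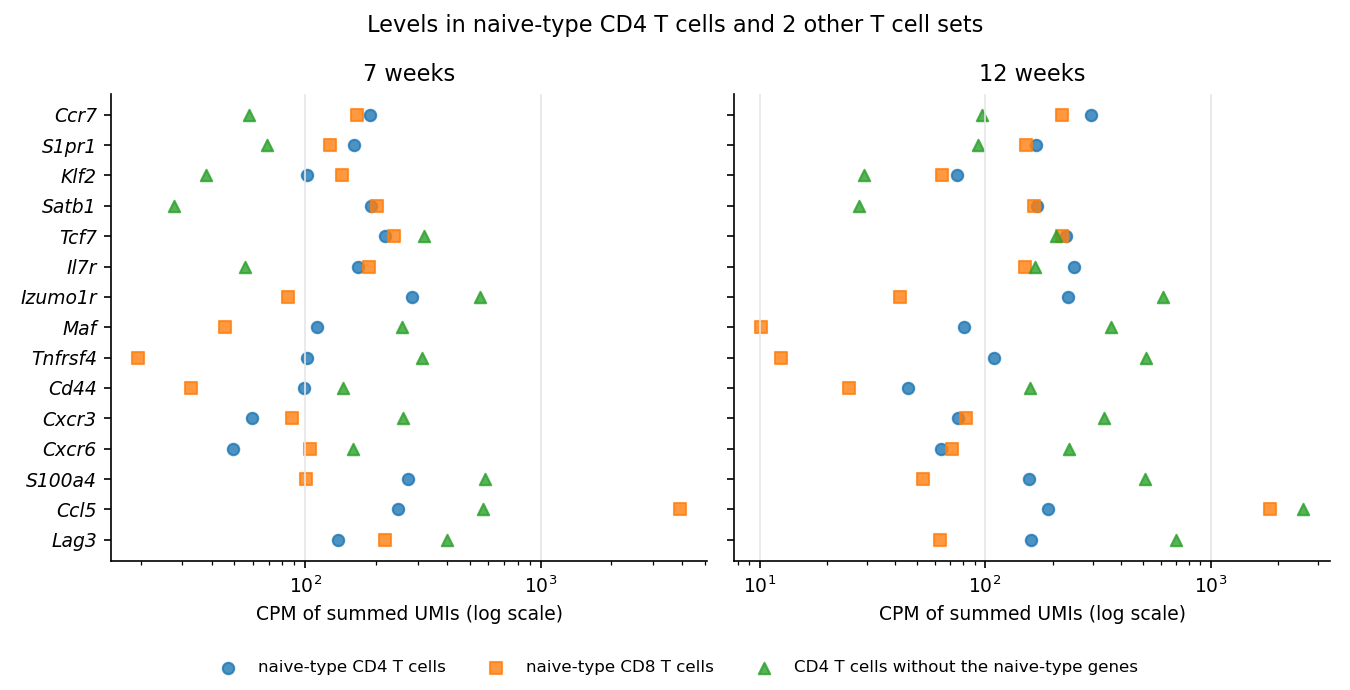
Levels of 15 genes in CPM of summed UMIs (log axis) in naive-type CD4 T cells, naive-type CD8 T cells and CD4 T cells without the naive-type genes, at 7 and 12 weeks. Ccr7, S1pr1, Klf2 and Satb1 lie close together in both naive-type sets and lower in the third, while Izumo1r, Maf and Tnfrsf4 in naive-type CD4 T cells lie between the other sets.

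Naive-type CD8 T cells, 49 and 162 cells chosen by the same naive-type genes but with Cd8a or Cd8b1 in place of Cd4, shared the homing profile. None of 17 naive and lymphoid homing genes differed by 1.5-fold in both libraries, and their median log2 ratio was -0.02 against 0.07 over all genes tested. Over 2160 genes tested 46 (2.13%) were higher and 30 (1.39%) lower in the CD4 cells. With so few genes past the limit, the count of 0 among 17 says nothing particular about homing genes.

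Genes higher in naive-type CD4 than CD8 T cells were led by Tesc, which encodes the calcium-binding protein tescalcin, at 125 against 19.6 CPM at 7 weeks and 103 against 9.06 CPM at 12 weeks, with ratios of 6.40 (2.68 to 18.5) and 11.4 (5.59 to 27.1). Tesc did not separate the naive-type CD4 T cells from CD4 T cells without the naive-type genes, with ratios of 1.04 and 1.10. Izumo1r was 3.34-fold and 5.60-fold higher than in the CD8 cells, Tbc1d4 3.30-fold and 8.25-fold, Tnfrsf4 5.22-fold and 8.84-fold and Maf 2.45-fold and 7.92-fold. At 12 weeks Izumo1r, Tbc1d4 and Maf were seen least often in the CD4 cells with 7 or more UMIs of the selecting genes, as described above. Without the CD8 cell highest in the gene the ratios became 8.27 for Maf and 5.50 for Tbc1d4 at 7 weeks and 16.0 for Tnfrsf4 at 12 weeks. Ass1, which encodes argininosuccinate synthase, was 5.97-fold and 3.10-fold higher, and Trib2, a pseudokinase gene, 2.78-fold and 3.28-fold.

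Cytotoxic lineage genes led the other direction. Ccl5 stood at 247 against 3899 CPM at 7 weeks and 190 against 1844 CPM at 12 weeks, ratios of 0.063 (0.050 to 0.080) and 0.10 (0.088 to 0.12). Nkg7, a cytotoxic granule gene, stood at 303 against 1219 CPM and 129 against 1088 CPM, and Klrd1, which encodes the NK receptor subunit CD94, at ratios of 0.15 and 0.11. Runx3, the factor that sets the CD8 lineage and silences Cd4, stood at 95.5 against 323 CPM and 38.9 against 197 CPM, ratios of 0.30 and 0.20. Ly6a, the Sca-1 gene, stood at 0.47 and 0.36. Without the CD4 cell highest in the gene the ratios became 0.023 and 0.062 for Ccl5, and at 7 weeks 0.12 for Nkg7 and 0.29 for Ly6a.

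The naive-type CD4 T cells took a larger share of the infiltrate at 12 weeks, 7.20% (6.27 to 8.22) of kept barcodes against 4.69% (3.52 to 6.10) at 7 weeks, a ratio of 1.54 (1.13 to 2.13). Among CD3-positive barcodes the share was 10.8% of 1877 against 6.21% of 838, a ratio of 1.73 (1.27 to 2.40). Among Foxp3-negative CD4 T cells it was 26.9% of 752 against 17.0% of 305, a ratio of 1.58 (1.16 to 2.18), while CD4 T cells without the naive-type genes went from 44.6% to 34.4% of that set, a ratio of 0.77 (0.63 to 0.96). Naive-type CD8 T cells had a ratio of 1.31 (0.94 to 1.84) among kept barcodes, and the difference between this and the CD4 ratio was not tested. When the rule was applied after thinning every barcode to 2000 UMIs, 31 of 1109 (2.80%) and 103 of 2804 (3.67%) remained, a ratio of 1.31. No interval was worked out for that ratio, so whether the share was larger at equal depth beyond counting error was not tested. The smallest kept barcode held 2587 UMIs at 7 weeks and 3031 at 12 weeks, so the libraries did not start from the same lower depth. Cells that met the naive-type rule but for 3 or more UMIs of the interferon-induced GTPase genes were 20 of 72 at 7 weeks (27.8%, 17.9 to 39.6) and 80 of 282 at 12 weeks (28.4%, 23.2 to 34.0), an equal share within counting error.

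Within the naive-type CD4 T cells, 2226 genes had a mean of at least 50 CPM over the ages. At 12 weeks 115 (5.17%) were at least 1.5-fold higher and 255 (11.5%) at least 1.5-fold lower than at 7 weeks, so 31.1% of the genes past the limit were higher. With TMM scaling, which moved the median of all genes by 0.12 on the log2 scale, 193 were higher and 184 lower, 51.2% higher. The balance of the directions therefore depends on the scaling, and differences near 1.5-fold cannot be read. The genes named next were ranked, without the 4 cells with other markers, by the interval bound nearest to 1.

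Ifngr1, which encodes the ligand-binding chain of the interferon-gamma receptor (chromosome 10, 19591949 to 19610229), led the higher genes: it stood at 72.6 CPM in the younger cells and 191 CPM in the older, a ratio of 2.63 (1.67 to 4.34). A UMI of it was held by 13 of 51 cells at 7 weeks and by 108 of 199 at 12 weeks, although the 12-week cells were shallower. In all other kept barcodes the Ifngr1 ratio was 1.19, and in cells with 7 or more UMIs of the selecting genes it was 2.04. It was also above 1 in the T cell sets most like these, at 1.76 (1.25 to 2.54) in naive-type CD8 T cells and 1.51 (1.11 to 2.08) in CD4 T cells without the naive-type genes. Il16, which encodes a chemoattractant that binds CD4, went from 86.4 to 182 CPM, a ratio of 2.11 (1.38 to 3.34) against 1.10 in the other barcodes and 1.34 in CD4 T cells without the naive-type genes. Emb, the gene of the adhesion glycoprotein embigin, went from 152 to 282 CPM, a ratio of 1.85, and stood at 0.87 in the others and 1.15 in CD4 T cells without the naive-type genes. Tnfrsf18, the GITR gene, went from 100.2 to 197 CPM, a ratio of 1.97 (1.33 to 3.02), and stood at 0.94 in the others and 1.27 in CD4 T cells without the naive-type genes. Sp3, a widely expressed transcription factor gene, went from 31.1 to 85.2 CPM (0.92 in the others). For Tsc22d3, by contrast, the ratio was 1.82 (1.39 to 2.43) here and 1.80 in the others. Tapbp, which encodes the peptide-loading factor tapasin, went from 104 to 199 CPM, a ratio of 1.92 against 1.16, and Ms4a4b, a membrane protein gene of naive and Th1 cells, from 591 to 965 CPM, a ratio of 1.63 against 1.23, with 1.74 in CD4 T cells without the naive-type genes. None of these differences from the other barcodes was tested, since each rests on the same 2 libraries.

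Of the 12 lower genes ranked first, 11 had a ratio under 1 in all other kept barcodes too. Over the 2483 genes tested in those barcodes the median log2 ratio was 0.05, and 4.39% were at least 1.5-fold lower. The share of all genes with a ratio under 1 there was not worked out. Ier5, an immediate-early gene (chromosome 1, 155096361 to 155099636), went from 190 CPM at 7 weeks to 26.1 CPM at 12 weeks, a ratio of 0.14 (0.083 to 0.22), and stood at 0.21 in the other barcodes. A UMI of Ier5 was held by 31 of 51 cells at 7 weeks and 25 of 199 at 12 weeks. Tob1, an antiproliferative gene of resting T cells, went from 114 to 15.5 CPM, a ratio of 0.14 against 0.27. Smad7, the feedback inhibitor of TGF-beta signalling, went from 190 to 54.2 CPM, a ratio of 0.29 against 0.35. Btg1, another antiproliferative gene, went from 1569 to 735 CPM, a ratio of 0.47 (0.42 to 0.53) against 0.46. Bag1, a cochaperone gene, and Hspa1b, an inducible HSP70 gene, stood at 0.17 and 0.34 against 0.26 and 0.34. Glrx5, which encodes a mitochondrial iron-sulfur cluster protein, went from 93.3 to 9.68 CPM, a ratio of 0.10 against 0.23. Xcl1, a chemokine gene, stood at 0.11, but 91.4% of its 7-week UMIs came from 1 cell.

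**Figure D4:**
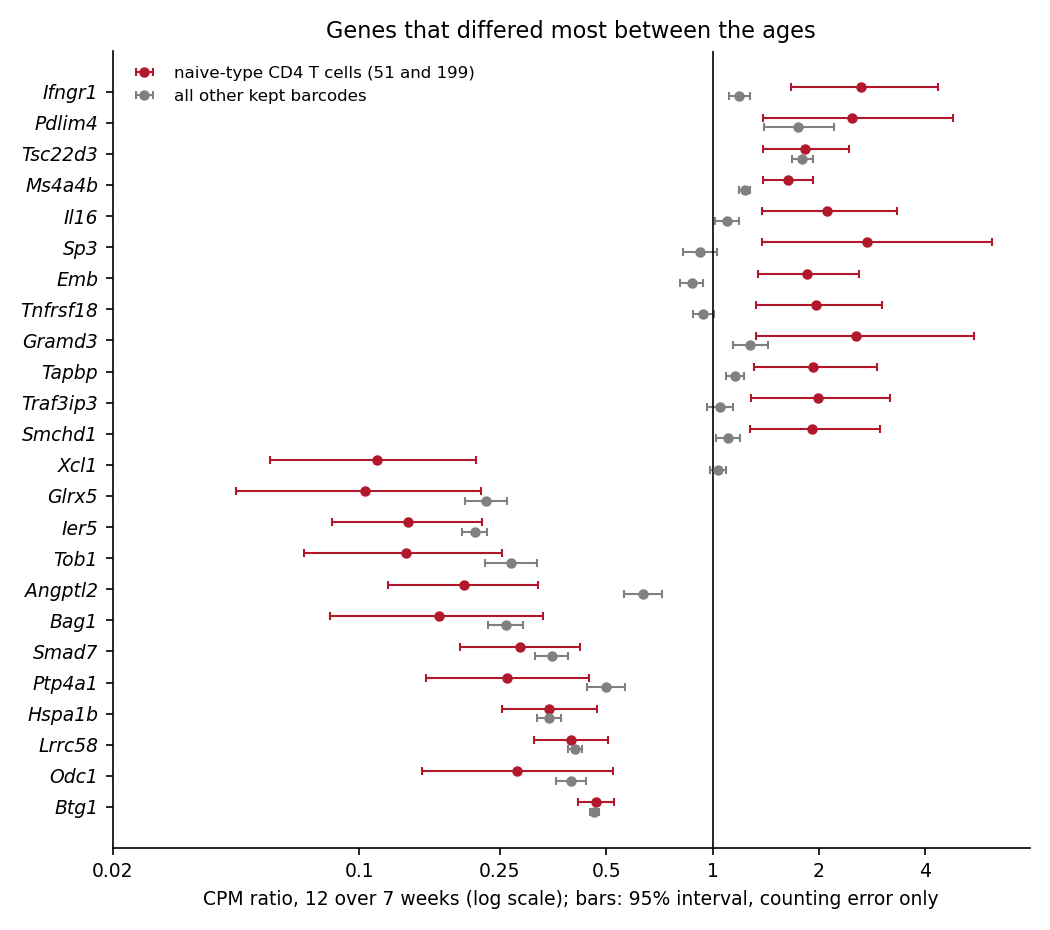
Ratio of CPM at 12 over 7 weeks (log axis, line at 1) for the 12 higher and 12 lower genes ranked first, in naive-type CD4 T cells (red, 51 and 199 cells) and in all other kept barcodes (grey); bars are 95% intervals from UMI counts. For Ifngr1, Sp3, Emb and Tnfrsf18 the red and grey intervals lie apart, whereas for Tsc22d3, Hspa1b, Lrrc58 and Btg1 the points nearly coincide.

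Genes of naive and homing cells went both ways between the ages. Of 16 tested 4 were higher and 2 lower at 12 weeks, beside 5.17% higher and 11.5% lower of all genes. Their median log2 ratio was 0.06 against -0.02 over all genes. Without the 4 cells with other markers 4 were higher and 1 lower, with a median of 0.02. Ccr7 went from 188 to 295 CPM, a ratio of 1.57 (1.18 to 2.12) beside 1.48 in the other barcodes. S1pr1 stood at 1.05. Klf2 stood at 0.73, Satb1 at 0.89 and Foxo1, the factor upstream of Klf2 and Il7r, at 0.65. Txk went from 366 to 231 CPM, a ratio of 0.63 (0.50 to 0.80). Il7r went from 168 to 248 CPM, a ratio of 1.48 (1.09 to 2.03).

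Of 15 adhesion and migration genes 3 were higher at 12 weeks, Ccr7, Itga4 and Itgb7, and 2 lower, Cd44 and the LFA-1 chain gene Itgal (0.57). These counts stand beside 5.17% higher and 11.5% lower of all genes, and the count of lower genes is near that share. Without the 4 cells with other markers 4 were higher and 2 lower. Both chains of the gut and inflamed-tissue homing integrin were thus higher, Itga4 by 1.95-fold (1.24 to 3.21) and Itgb7 by 1.60-fold (1.23 to 2.09), from 227 to 363 CPM, with Itgb7 at 0.97 in the other barcodes. Cd5, a receptor whose level follows the strength of self-recognition, went from 95.5 to 164 CPM, a ratio of 1.72 (1.16 to 2.64) against 0.84. Cd5 was 1 of 3 higher and 0 lower among 19 T cell receptor signalling genes, beside the same shares of all genes. That list had a median of 0.07.

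Of 14 immediate-early genes tested 6 were lower and none higher at 12 weeks, beside 11.5% lower and 5.17% higher of all genes, with a median log2 ratio of -0.51: Fos went from 820 to 496 CPM (0.61), and Jund and Gadd45b stood at 0.45 each. Jun stood at 1.07. Without the 4 cells with other markers 7 of 14 were lower and none higher (median -0.55). In naive-type CD8 T cells 6 of 14 were lower and 1 higher (median -0.42). Cells with 7 or more UMIs of the selecting genes gave a median of -0.13. Heat shock genes were lower in 4 of 14, with a median of -0.32 that stayed between -0.46 and -0.20 under every alternative tried. Of 9 activation response genes 4 were lower and 1 higher, including Nr4a1, an early gene of receptor signalling, at 0.40 (0.23 to 0.70).

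Effector, cytokine-pathway and interferon lists were mixed. Of 17 effector and memory genes 5 were lower and 1 higher, beside 11.5% and 5.17% of all genes. Cd44 went from 98.8 to 45.6 CPM, a ratio of 0.46 (0.29 to 0.75). S100a4, Nkg7 and Lgals3 stood at 0.57, 0.43 and 0.53, but each rested on 1 cell at 7 weeks: without the cell highest in the gene the ratios were 1.48, 0.86 and 1.47. S100a6, a calcium-binding protein gene, was higher, from 194 to 356 CPM, but its ratio of 1.83 became 0.90 in cells with at least 3 UMIs of the selecting genes. Of 7 helper lineage genes 3 were lower, among them Tnfsf8, from 161 to 70.2 CPM (0.44, against 1.21 in the other barcodes), and Runx3 at 0.41. The interferon-gamma response list, which leaves out the 3 GTPase genes of the rule, had a median of 0.14 with 3 of 14 higher and 1 lower, and 0.23 with 4 higher and none lower without the 4 cells with other markers. Its members Ifngr1 and Tapbp are those described above, and Tap1, the peptide transporter gene, stood at 1.70. The type I interferon list changed sign with the same 4 cells, from -0.02 to 0.17. Glycolysis genes had a median of 0.10 with none of 9 past 1.5-fold.

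**Figure D5:**
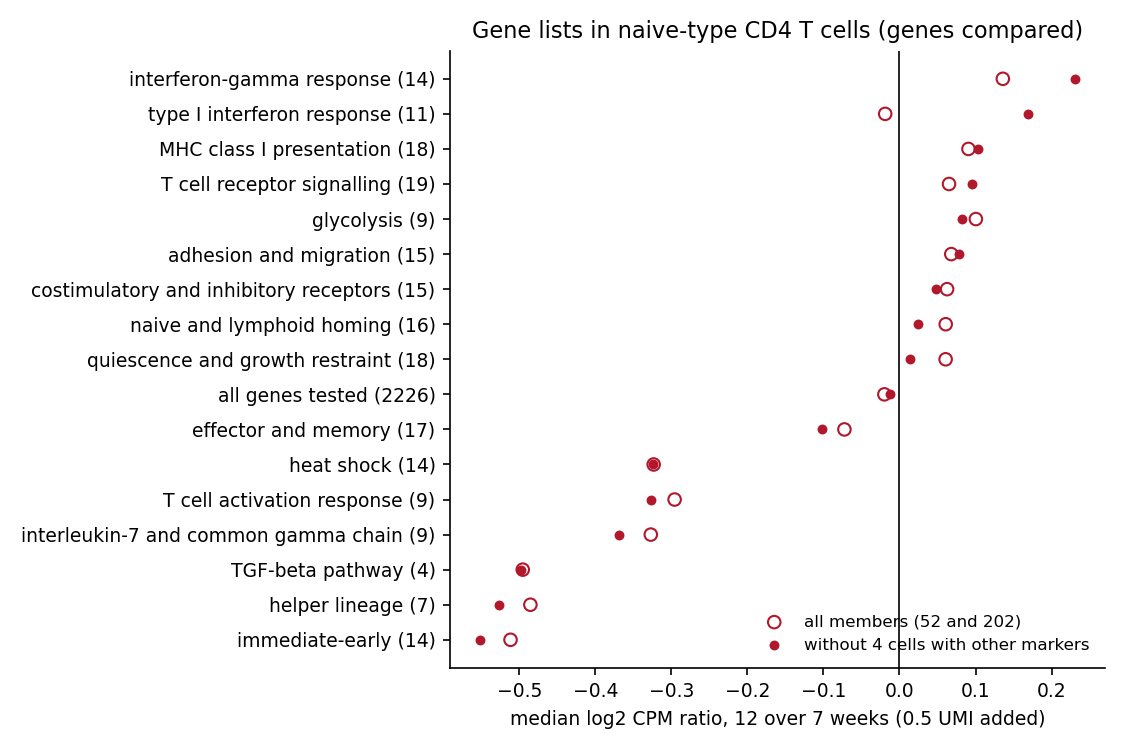
Median log2 ratio of CPM at 12 over 7 weeks (0.5 UMI added) for each gene list in naive-type CD4 T cells, with the number of genes compared in brackets; open circles are all 52 and 202 cells and filled circles the 51 and 199 cells without other markers. Immediate-early, helper lineage and TGF-beta pathway genes lie near -0.5, and the 2 interferon lists move to the right without the 4 cells.

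Variation among the cells was concentrated in few genes. After thinning to 2000 UMIs, 1597 genes had a median variance-to-mean ratio of 1.03 at each age, the value counting noise alone gives being 1, and 44 exceeded 1.5 at both ages. Ccl5 came first, with ratios of 10.3 and 15.8: it was seen in 13 of 52 and 44 of 202 cells (21.8%), beside 13.0% and 17.1% of B cells, but reached 18 and 36 UMIs in single ones. S100a4 (3.93 and 7.11) was likewise seen in few cells, 6 of 52 and 14 of 202. Nkg7 had ratios of 3.80 and 3.08. Abundant RNAs also varied: Actb, the cytoskeletal actin gene (12.9 and 8.02), and the nuclear RNA Malat1 (8.75 and 10.6). Ly6a (4.78 and 3.99) and Ifi27l2a (3.03 and 3.89) are interferon-induced, and varied although cells with 3 or more UMIs of the GTPase genes had been left out; 17 of 52 and 115 of 202 cells held 1 or 2 of those UMIs. No gene followed Lef1 closely from cell to cell: the likest by the mean of both ages was Nop56, a nucleolar protein gene, with correlations of 0.36 and 0.21 over 52 and 202 cells, and Satb1 had 0.22 and 0.28. Such weak correlations in sparse counts are given as description only.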

How the data were processed

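Immune cells of the pancreas were profiled in 1 library per age. The authors deposited UMI counts for 27998 genes and 3925 barcodes, made with Cell Ranger 1.3.1 on mm10 per the submitters' processing notes; how cells were called is not given in the sources used. Coordinates are from GENCODE vM21.

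Barcodes outside the limits numbered 4 and 8. UMIs were summed over the selected cells per library and scaled to CPM. Ratios carry exact conditional binomial intervals and shares Clopper-Pearson intervals; zero counts were handled by adding 0.5 UMI to log2 ratios. Named genes were, per comparison, the 12 higher and 12 lower ranked by the interval bound nearest 1 (between ages) or by the smaller log2 ratio of the 2 libraries (between cell sets), 12 by variance-to-mean ratio and 10 by likeness to Lef1, with list genes. Members, lists and thresholds were chosen with earlier results of these data known; the bands and the cells with other markers were set after seeing the data. Scripts were checked on simulated data. Software: Python 3.11.15, numpy 2.4.6, scipy 1.17.1, pandas 2.3.3, matplotlib 3.10.9, R 4.3.3, and edgeR 4.0.16 for TMM factors only.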

Additional observations from a re-analysis of the deposited data

Results flagged for a closer look

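The genes looked at were the 12 higher and 12 lower ranked first between the ages with no cell left out. For 6 of them the interval of the ratio of 12 over 7 weeks excluded 1 in naive-type CD4 T cells. In another set of cells of the same libraries it excluded 1 on the other side. Ratios alone lay on opposite sides of 1 for further genes, such as Sp3 at 2.85 here and 0.92 in all other kept barcodes. How often this occurs over all genes was not worked out. None of these differences was tested, and each rests on 1 library per age. S100a6 had a ratio of 1.83 in naive-type CD4 T cells, 0.42 in naive-type CD8 T cells and 0.84 in all other kept barcodes, with 30.5% and 21.3% of its UMIs in the highest single cell at 7 and 12 weeks. Emb had a ratio of 1.90 (1.38 to 2.66) here and 0.87 in all other kept barcodes. Irf8, Cd74, Plac8 and Slpi had ratios of 0.15, 0.22, 0.23 and 0.24 here and of 1.20, 1.44, 1.26 and 2.97 in all other kept barcodes. In CD4 T cells without the naive-type genes Irf8, Cd74 and Plac8 were below 1 too, at 0.47, 0.27 and 0.32, while Slpi stood at 1.21. In naive-type CD8 T cells the 4 ratios were 1.04, 1.36, 1.08 and 2.08. Of the 7-week UMIs of these last 4 genes in naive-type CD4 T cells, between 79.8% and 88.9% came from 1 cell.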

How the results depend on the processing

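The ratio of shares stayed above 1 under every alternative, from 1.19 with at least 1 UMI of Lef1, Igfbp4 and Dapl1 to 1.84 with at least 7. These are point values without intervals. Genes higher at 12 weeks numbered 115, and 193 with TMM scaling, 337 without mitochondrial and ribosomal protein genes, 270 after thinning, 57 with no limit on the GTPase genes, 201 with 7 or more UMIs of the selecting genes, 462 and 27 at mean CPM of at least 20 and 100, and 15 at 2-fold. Genes lower at 12 weeks numbered 255, and 448 without mitochondrial and ribosomal protein genes, 409 after thinning, 816 and 92 at mean CPM of at least 20 and 100, and 80 at 2-fold. Over naive-type CD8 T cells the higher and lower counts of 46 and 30 became 15 and 15 at a mean CPM of at least 100, 13 and 12 at 2-fold, and 74 and 54 after thinning. Over CD4 T cells without the naive-type genes 43 and 194 became 22 and 95, 13 and 75, and, with 7 or more UMIs, 81 and 303. Genes with a variance-to-mean ratio over 1.5 went from 44 to 83 at 3000 UMIs. The interleukin-7 and common gamma chain list changed sign from -0.33 to 0.013 with 7 or more UMIs and 0.26 at a mean CPM of at least 100, and glycolysis to -0.14 with no GTPase limit. Gene ratios changed sides of 1 without the 4 cells and without the cell highest in the gene: Col3a1 to 0.84 and 0.865, Col1a2 to 0.84 and 0.865, Sparc to 0.093 and 0.096, Irf8 to 1.09 and 1.12, Cd74 to 1.03 and 1.08, Slpi to 1.91 and 1.97; without the highest cell alone, Xcl1 to 1.19 and Plac8 to 1.76. The values for Col3a1, Col1a2 and Sparc rest on the 0.5 UMI added to each sum. At 7 weeks these genes had 0, 0 and 1 UMI, and at 12 weeks 99.5%, 99.1% and 100% of their UMIs came from 1 cell. S100a6 went to 0.90 with at least 3 UMIs and 0.82 with no GTPase limit. The cause was not tested, beyond what leaving out a cell shows. Of the other values, 127 list medians and 215 gene ratios stayed close and 59 and 33 moved. The 7 or more UMI limit, the removal of the 4 cells and, for list genes, of the highest cell were chosen after seeing the data. No paired analysis was possible because each age has 1 library. At 7 weeks 52 cells and 303704 UMIs limit precision.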
